A study of Mus musculus with 14 samples.

Results

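The secretory pathway and protein glycosylation machinery was followed in mouse germinal centre (GC) B cells as 57 genes of the 9969 in a table of transcript counts. The genes were chosen by symbol: those beginning with Sec11, Sec13, Sec16, Sec22, Sec23, Sec24, Sec31, Sec61, Sec62, Sec63, Ssr, Spcs, Pdia or Tmed, those made of Srp and a number, and a short list of oligosaccharyltransferase and COPI subunits. That rule reads symbols and no expression values, but it was set with earlier results of these data known. Rpn1, which the rule also names, was not analysed here. The prefix Ssr also takes in Ssrp1, a histone chaperone subunit with no role in secretion, which is given separately. Of the 57 genes, 53 passed the filter on low counts. The other 4 were Sec16b (44 UMIs in all libraries together), Sec61g (30), Sec62 (22) and Tmed6 (46), where a UMI is a unique molecular identifier that marks 1 captured transcript.

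The RNA came from GC B cells sorted out of the popliteal lymph nodes of C57BL/6 mice. Each mouse was a chimera made of 50% SykY317F and 50% wild-type (WT) cells and had received the hapten-carrier conjugate NP-KLH 14 days earlier. Syk is a kinase that relays antigen receptor signals, and SykY317F carries phenylalanine in place of a tyrosine. Within a GC, division and antibody gene mutation take place in the dark zone (DZ), and selection on antigen and T cell help in the light zone (LZ). The groups were SykY317F LZ (n = 3), SykY317F DZ (n = 3), WT LZ (n = 4) and WT DZ (n = 4). Both genotypes shared the immunization and, as far as the labels go, the chimeric hosts. Whether each library stands for its own mouse is not in the labels, so the p-values measure only the spread between libraries. These are bulk libraries, in which fewer cells of a type and less RNA per cell cannot be told apart.

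Proteins bound for the cell surface or for export enter the endoplasmic reticulum (ER) while they are made. The signal recognition particle brings the ribosome to the Sec61 channel, signal peptidase cuts the leader, oligosaccharyltransferase attaches N-glycans and disulphide isomerases fold the chain. COPII vesicles then carry cargo to the Golgi and COPI vesicles return it, with p24 proteins as cargo receptors. B cells use this route for their antigen receptor, and the route expands when they become antibody-secreting plasma cells.

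ER stress elements are promoter motifs of this machinery, through which the unfolded protein response is known to act. The 250 bases upstream of each RefSeq start site (build GRCm38.p6) were searched on both strands for 4 motifs. RefSeq gave promoters for 49 of the 57 genes. The core ACGTGG was found in 15 of them (30.6%), against 11.6% of the 6228 tested genes with a promoter and 7.84% of all 27025 genes with a promoter. A gene was counted if any of its listed starts matched. The 49 include genes that did not pass the filter on low counts, such as Sec16b, so the shares of tested genes given here are not a fully like background. Of the 15 genes with the core, 14 were tested. The longer unfolded protein response element TGACGTGG, which contains that core, was found in Sec16b, Sec24d and Copb1 (6.12%), against 0.931% of tested genes. The ER stress element, CCAAT and CCACG separated by 9 bases, was found in Pdia6 alone (2.04%, against 0.193% of tested genes), and the motif known as ERSE-II was found in 0 of 49. These are matches of letters and not mapped binding sites. The promoters below show Pdia6, with the ER stress element and a core, Sec24d and Copb1, with the longer element, and Ost4, the gene with the smallest p-value between genotypes, which holds none of the 4 motifs. Capitals mark the matches, and each sequence runs 5′ to 3′ on the strand of its gene, from chr12:17266339-17266588 (plus), chr3:123267246-123267495 (plus), chr7:114254681-114254930 (minus) and chr5:30907789-30908038 (minus) in that order.
Pdia6: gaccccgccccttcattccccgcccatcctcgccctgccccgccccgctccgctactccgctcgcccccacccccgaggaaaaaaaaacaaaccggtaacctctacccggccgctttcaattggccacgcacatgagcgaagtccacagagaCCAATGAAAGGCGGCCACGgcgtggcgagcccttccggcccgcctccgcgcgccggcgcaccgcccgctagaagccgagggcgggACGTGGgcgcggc
Sec24d: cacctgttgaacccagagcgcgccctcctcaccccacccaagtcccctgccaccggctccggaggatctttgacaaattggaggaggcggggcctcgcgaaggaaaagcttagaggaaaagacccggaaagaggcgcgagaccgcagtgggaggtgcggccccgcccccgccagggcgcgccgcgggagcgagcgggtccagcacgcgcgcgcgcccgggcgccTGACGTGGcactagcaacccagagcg
Copb1: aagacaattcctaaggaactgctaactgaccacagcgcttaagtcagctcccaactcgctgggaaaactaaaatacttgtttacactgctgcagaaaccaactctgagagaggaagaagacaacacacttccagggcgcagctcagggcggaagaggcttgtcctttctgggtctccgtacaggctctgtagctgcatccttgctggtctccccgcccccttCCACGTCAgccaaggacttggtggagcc
Ost4: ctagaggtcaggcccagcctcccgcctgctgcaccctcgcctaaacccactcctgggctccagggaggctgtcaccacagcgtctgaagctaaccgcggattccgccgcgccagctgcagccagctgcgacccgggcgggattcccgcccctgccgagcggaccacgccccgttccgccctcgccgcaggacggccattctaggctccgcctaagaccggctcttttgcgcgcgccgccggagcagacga
Genes with and without the core did not separate clearly by zone. Averaged over genotypes, LZ over DZ, the 14 tested genes with the core had a median log2 fold change of -0.09, with 4 above 0 and 10 below. The 31 tested genes that had a promoter and no core had a median of 0.00, with 16 above 0 and 15 below.

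The libraries differed in depth. UMI totals ran between 149641 and 379125 in SykY317F LZ, 381954 and 1413310 in SykY317F DZ, 499443 and 1600902 in WT LZ, and 747948 and 1767898 in WT DZ. Each SykY317F LZ library gave at most 15.8 UMIs per 100 reads and each WT library at least 33.5, so this yield and the group cannot be told apart in LZ. A count of 3 UMIs stood for 8.95 to 18.8 CPM in SykY317F LZ, 2.02 to 8.29 in SykY317F DZ, 1.73 to 5.76 in WT LZ and 1.88 to 3.88 in WT DZ, where CPM is UMIs per 1000000 of the library total after TMM scaling. All 8 B cell markers listed were measured. Of 8 GC B cell markers listed, 7 were measured. They summed to 1327 to 2271 CPM in SykY317F LZ and 1602 to 2316 in SykY317F DZ. In WT the sums were 1292 to 2477 in LZ and 2695 to 3225 in DZ. The DZ genotypes and the WT zones did not overlap for this sum. For SykY317F against WT in DZ all 7 lay below 0 (median -0.55) and none passed. For the averaged zones, 2 of the 7 fell and 0 rose (background 1.43%). The part of this in other differences was not tested. Cd83, an LZ marker, rose in LZ against DZ averaged over genotypes (log2 fold change 1.0 ± 0.18 SE, edgeR adjusted p = 0.00848). Of 8 DZ markers listed, all lay below 0 in this contrast (median -1.51) and 6 fell, and of 9 LZ markers all lay above 0 (median 0.75) and 4 rose. Both lists were chosen with earlier results of these data known, so these counts are no independent check of the sorting. Cxcr4, the receptor that holds cells in the DZ, was among the DZ markers that did not pass, at -0.19 ± 0.23. Syk itself gave -0.35 for LZ against DZ averaged over genotypes and passed in 0 of 26 alternative settings (-0.56 to -0.29).

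As a whole, the machinery took a similar share of the raw UMIs in every group, while its TMM-scaled sum was lower in LZ in WT. The 57 genes held 0.495 ± 0.067% of UMIs in SykY317F LZ, 0.521 ± 0.022% in SykY317F DZ, 0.480 ± 0.044% in WT LZ and 0.522 ± 0.025% in WT DZ (SD, n = 3, 3, 4 and 4). After TMM scaling they summed to 4839, 4548, 4904 and 4813 CPM in WT LZ and 4939, 5213, 5115 and 5474 in WT DZ. These WT zones did not overlap. In SykY317F the sums were 5593, 4883 and 5281 CPM in LZ and 5050, 4721 and 5576 in DZ, which overlapped. The sums were not tested. No single gene of the machinery passed edgeR's quasi-likelihood test at an adjusted p of 0.05 in any of 7 contrasts. Over all 7999 tested genes the same rule called 0.188% for LZ against DZ in WT, 0.0375% for LZ against DZ in SykY317F and 1.43% for the zones averaged over genotypes. It called 0% for SykY317F against WT in DZ, in LZ and averaged over zones, and 0% for the difference of the zone effects. The p-values of the machinery were also no denser at the low end than the background. At an unadjusted p under 0.05 there were 2 of 53 for the WT zones (background 8.48%), 3 for the SykY317F zones (10.3%) and 4 for the averaged zones (14.3%). For genotype there were 0 in DZ (3.81%), 4 in LZ (9.81%) and 4 averaged over zones (10.1%). The difference of the zone effects gave 2 (4.8%).

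Other tests called at most 1 gene of the machinery per contrast. limma voom with sample quality weights called Tmed3 between the WT zones, 1 of 53 against 3.69% of all tested genes. It called 0 in the other 6 contrasts, with a background of 0.0375% for the SykY317F zones, 2.84% for the averaged zones, 0.05% for genotype in DZ and averaged over zones, and 0% in the rest. DESeq2's Wald test called Ost4 for SykY317F against WT in LZ (background 0.4%) and averaged over zones (0.5%). Elsewhere it called 0, against 1.05% for the WT zones, 0.388% for the SykY317F zones, 2.94% for the averaged zones, 0.025% for genotype in DZ and 0% for the difference of the zone effects. With each library's trend along GC content removed, edgeR called Ost4 for genotype in LZ (0.304%) and 0 elsewhere, against 0.569% for the WT zones, 0.0661% for the SykY317F zones, 0.0132% for genotype in DZ and 2.53% for the averaged zones. In the authors' deposited table, Ost4 alone had an adjusted p under 0.05, in the LZ genotype comparison (0.251% of that table's genes). The machinery had 0 there between the WT zones (0.782%), the SykY317F zones (0.221%) and the DZ genotypes (0.181%).

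**Figure D1:**
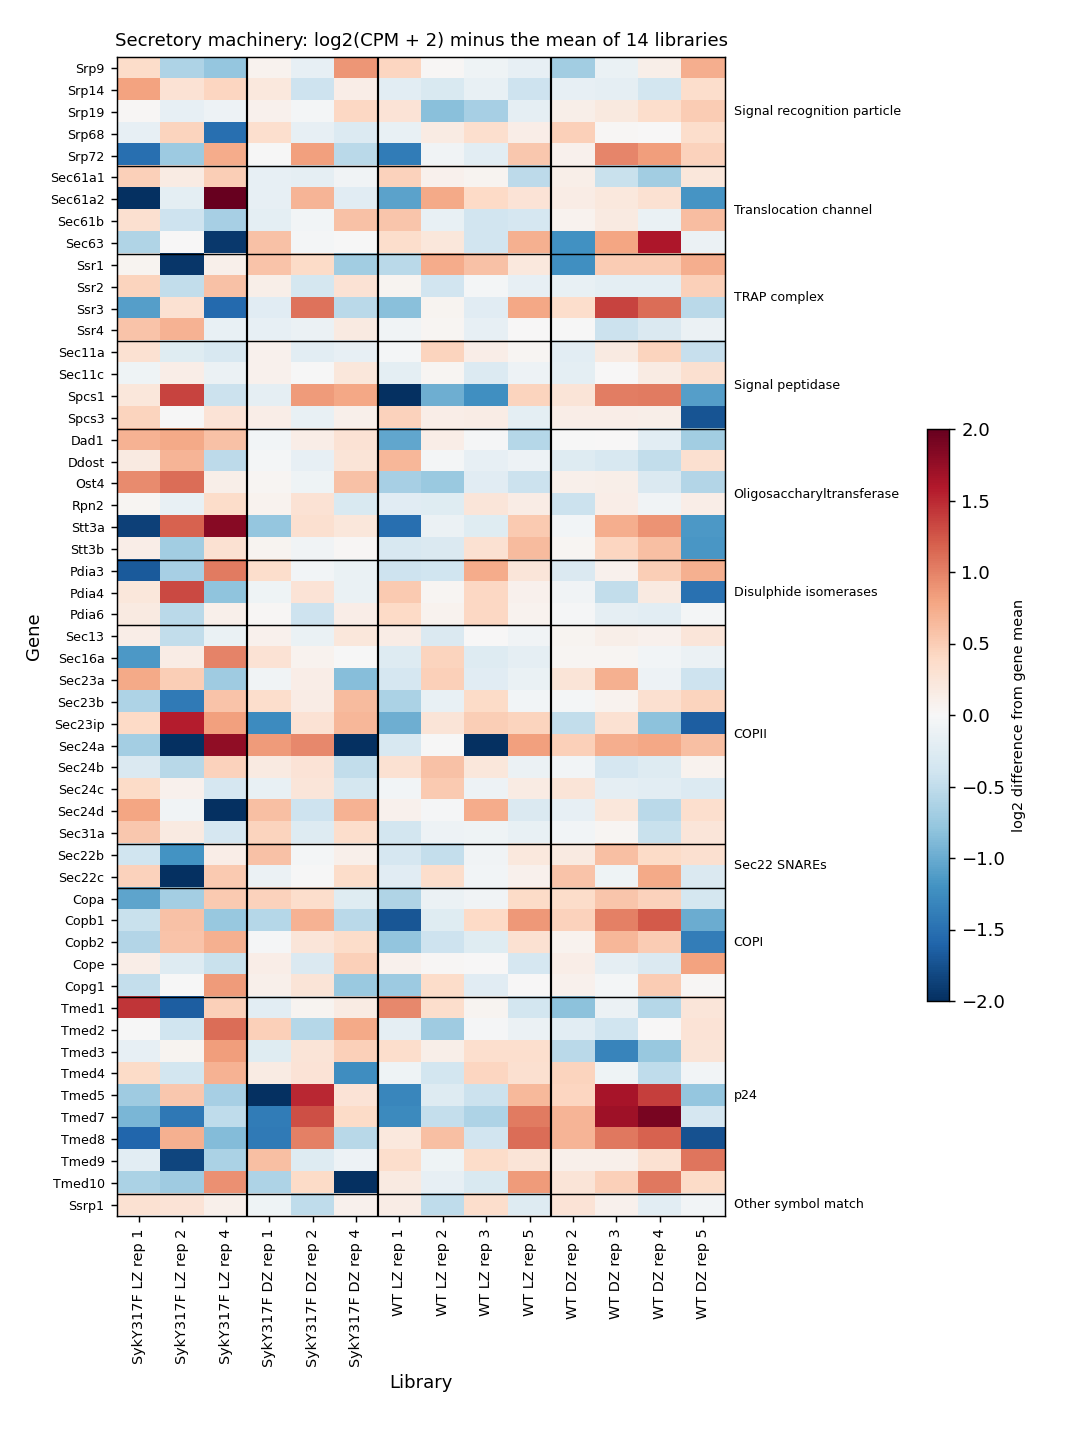
Level of the 53 tested genes (rows, grouped by role) in the 14 libraries (columns, grouped by genotype and zone), as log2(CPM + 2) minus the gene's mean over libraries, from blue (lower) to red (higher). Dad1 is red in all 3 SykY317F LZ columns, and the p24 genes Tmed5, Tmed7 and Tmed8 swing widely between columns of 1 group.

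Targeting to the ER began with the signal recognition particle, whose 5 measured subunits summed to 503 ± 73.7 CPM in SykY317F LZ, 501 ± 76.0 in SykY317F DZ, 416 ± 35.8 in WT LZ and 511 ± 88.8 in WT DZ. In WT, the fitted LZ-over-DZ difference was below 0 for all 5, with a median log2 fold change of -0.21, and none passed the test. With the GC trend of each library removed, 4 of 5 were below 0. Srp19, a subunit that helps to assemble the particle on its RNA, had the smallest p in the WT zones. It was measured at 138, 63.3, 71.0 and 100.5 CPM in WT LZ and at 124, 131, 145 and 162 CPM in WT DZ. WT LZ replicate 1 lay inside the range of the WT DZ libraries and the other 3 lay below it, with a log2 fold change of -0.59 ± 0.24 (SE; edgeR adjusted p = 0.461). Srp14, part of the domain that pauses translation, is described with the genotypes. Srp72, which binds the particle's RNA, gave -0.71 ± 0.37 over both genotypes (adjusted p = 0.388).

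At the channel, Sec61b, a small subunit, had the most UMIs of any member, 5341 over all libraries. Its level averaged 343 ± 130 CPM in SykY317F LZ, 434 ± 132 in SykY317F DZ, 383 ± 128 in WT LZ and 454 ± 106 in WT DZ. The zone difference averaged over genotypes was -0.28 ± 0.21 on the log2 scale (adjusted p = 0.582). Sec61a1, which forms the pore, was measured at 224, 181 and 226 CPM in SykY317F LZ and at 143, 141 and 152 CPM in SykY317F DZ. The SykY317F zones did not overlap for this gene. In WT LZ it was at 222, 170, 167 and 110 CPM and in WT DZ at 175, 118, 97.9 and 187 CPM, where the zones overlapped, and the averaged difference was 0.37 ± 0.19 (adjusted p = 0.378). Sec63, which couples the channel to the chaperone BiP, held only 107 UMIs in all and could not be placed within the spread (-0.79 ± 0.66 averaged over genotypes).

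The TRAP complex sits beside the channel and helps some chains to enter. Its 4 subunits summed to 511 ± 46.9 CPM in SykY317F LZ, 440 ± 33.2 in SykY317F DZ, 408 ± 21 in WT LZ and 435 ± 30.4 in WT DZ. For the zones averaged over genotypes, 2 subunits lay above 0 and 2 below. Ssr4 averaged 251 ± 71.7 CPM in SykY317F LZ, 184 ± 25.0 in SykY317F DZ, 181 ± 11.3 in WT LZ and 163 ± 21.3 in WT DZ, and its zone difference averaged over genotypes was 0.31 ± 0.16 (adjusted p = 0.378). Ssr3 gave -0.85 ± 0.42 in the same contrast (adjusted p = 0.365). Signal peptidase, which cuts the leader, summed to 506 ± 63.1 CPM in SykY317F LZ, 521 ± 33.0 in SykY317F DZ, 456 ± 39.1 in WT LZ and 515 ± 73.0 in WT DZ. Sec11c, one of its catalytic subunits, averaged 290 ± 28.1 CPM in SykY317F LZ, lay between 293 and 345.5 in SykY317F DZ, and averaged 269 ± 25.5 in WT LZ and 313 ± 47.5 in WT DZ. It had the narrowest spread of the 53 genes. Its small partner Spcs1 was at 8.78, 20.8, 17.3 and 59.5 CPM in WT LZ and at 51.8, 89.5, 89.9 and 18.8 CPM in WT DZ, groups that overlapped (-1.14 ± 0.57, adjusted p = 0.614).

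Oligosaccharyltransferase was the group with the largest median difference between genotypes in LZ. Its 6 measured subunits summed to 1107 ± 30.7 CPM in SykY317F LZ, 881 ± 68.1 in SykY317F DZ, 777 ± 125 in WT LZ and 804 ± 169 in WT DZ. For SykY317F against WT in LZ the fitted difference was above 0 for 5 of 6 subunits, with a median log2 fold change of 0.55, against -0.06 over all tested genes. With scaling by library size alone, 3 of 6 were above 0 and the median was 0.45. The small subunits Ost4 and Dad1, which hold the complex together, carried most of the sum's difference, and Srp14 showed a like pattern outside the complex.

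Ost4 (chromosome 5, 30905885 to 30907788, minus strand, GRCm38) was measured at 281, 316 and 157 CPM in SykY317F LZ, from 94, 56 and 25 UMIs, and at 90.0, 85.0, 123 and 107 CPM in WT LZ, from 82, 86, 64 and 185 UMIs. The LZ genotypes did not overlap. In DZ it was at 149, 135 and 218 CPM in SykY317F and at 155, 156, 118 and 95.5 CPM in WT, which overlapped. The log2 fold change of SykY317F over WT was 1.33 ± 0.28 (SE) in LZ, where edgeR's adjusted p was 0.111, and 0.34 ± 0.26 in DZ. The difference of these effects was 0.99 ± 0.39 (unadjusted p = 0.0178, adjusted p = 0.999), so a larger genotype effect in LZ was not shown. DESeq2's Wald test on the same counts gave 1.35 with an adjusted p of 0.0117. With the GC trend of each library removed, edgeR gave 1.44 with an adjusted p of 0.0357. The authors' deposited table gives Ost4 a log2 fold change of 1.35 with an adjusted p of 0.0153 in this comparison. Exons of Agbl5 overlap Ost4, and whether reads were counted by strand is not given in the sources used here, so counts of these genes are uncertain.

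Dad1 (chromosome 14, 54235479 to 54254104, minus strand) was measured at 364, 384 and 339 CPM in SykY317F LZ and at 109, 248, 221 and 151 CPM in WT LZ. All 3 SykY317F LZ libraries lay above every other library of the series, and the log2 fold change in LZ was 1.0 ± 0.27 (edgeR adjusted p = 0.193). Srp14 (chromosome 2, 118475850 to 118479711, minus strand) was at 299, 209 and 232 CPM in SykY317F LZ and at 148, 137, 154 and 128 CPM in WT LZ, a log2 fold change of 0.81 ± 0.24 (adjusted p = 0.269). Tmed9, a p24 cargo receptor (chromosome 13, 55573732 to 55597697, plus strand), lay the other way. It was at 143, 45.2 and 107 CPM in SykY317F LZ and at 213, 157, 215 and 199.8 CPM in WT LZ, a log2 fold change of -0.94 ± 0.35 (adjusted p = 0.377). These 4 genes were those of the 53 whose LZ genotypes did not overlap, a share below the 10.5% of all tested genes. In DZ, 0 of 53 genes had genotypes that did not overlap (background 5.88%). Each SykY317F LZ library was also low in UMIs per read, and the part of that in these differences was not tested.

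**Figure D2:**
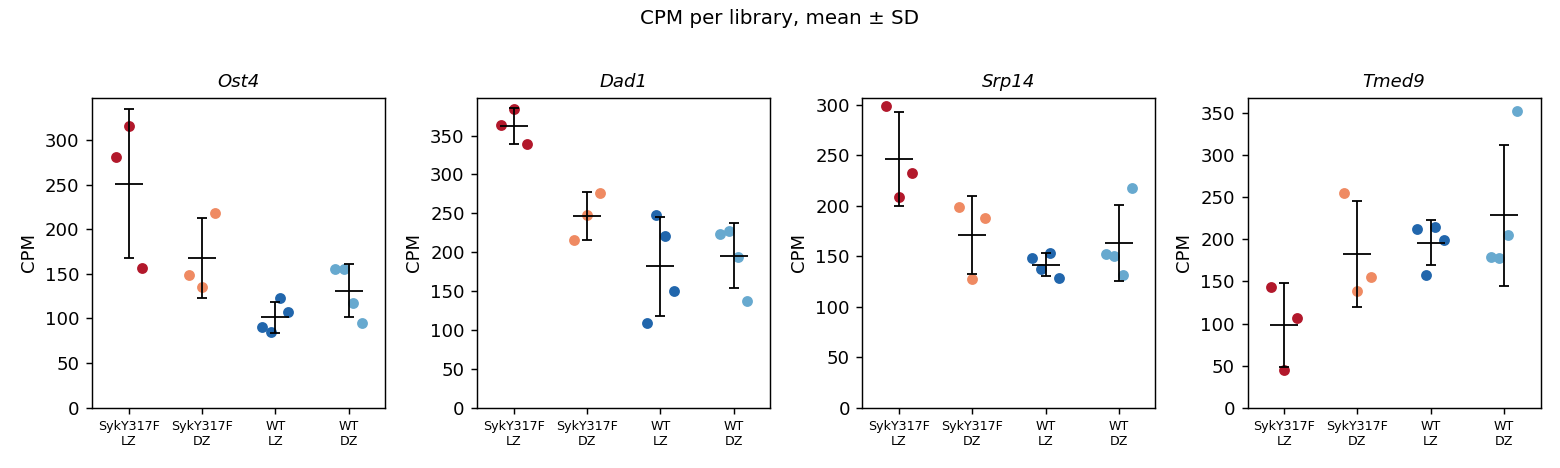
CPM of Ost4, Dad1, Srp14 and Tmed9 in each library (points) with the mean and SD of the group (lines), for SykY317F LZ, SykY317F DZ, WT LZ and WT DZ. The SykY317F LZ points lie above the WT LZ points for Ost4, Dad1 and Srp14 and below them for Tmed9, and the DZ genotypes overlap for all 4.

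The catalytic subunits of oligosaccharyltransferase were less clear. Stt3b, which can glycosylate chains that have left the channel, averaged 260 ± 85.2 CPM in SykY317F LZ, 267 ± 12.1 in SykY317F DZ, 293 ± 95.9 in WT LZ and 288 ± 126 in WT DZ. Stt3a, which works at the channel, ranged between 2.99 and 62.7 CPM within the SykY317F LZ libraries alone, and its genotype difference in LZ was 1.08 ± 0.77. Ddost, Rpn2 and Stt3b had differences of 0.07, 0.10 and -0.17 on the log2 scale there, with intervals that spanned 0.

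Among the disulphide isomerases, Pdia6 was the only gene of the machinery whose WT zones did not overlap, 1 of 53 against 5.76% of all tested genes. It was at 350, 276, 353 and 277 CPM in WT LZ and at 260, 233, 227 and 257 CPM in WT DZ. The log2 fold change was 0.36 ± 0.21 (adjusted p = 0.659), and in SykY317F the zones overlapped, at 299, 181 and 282 CPM in LZ against 269, 197 and 290 CPM in DZ. Exons of Atp6v1c2 overlap Pdia6. Pdia3, which folds glycoproteins with calreticulin, spread between 26.9 and 188 CPM in SykY317F LZ and gave -0.20 ± 0.32 averaged over genotypes. Pdia4 held 158 UMIs in all and gave 0.62 ± 0.40 in the same contrast. In SykY317F the zones did not overlap for 4 genes (Dad1, Sec61a1, Srp14 and Ssrp1, all higher in LZ), against a background of 15.1%.

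No gene of either vesicle coat passed. COPII, which buds from the ER, was level at sums of 521 ± 60.6 CPM in SykY317F LZ, 537 ± 25.6 in SykY317F DZ, 508 ± 38.6 in WT LZ and 508 ± 29.3 in WT DZ, with 5 of 10 tested genes above 0 for LZ against DZ averaged over genotypes. Sec13 of its outer cage stayed between 102 and 171 CPM in all 14 libraries. COPI, which buds from the Golgi, summed to 534 ± 26.8 CPM in SykY317F LZ and 624 ± 57.9 in SykY317F DZ, and to 542 ± 34.0 in WT LZ and 666 ± 62.0 in WT DZ. The zones did not overlap for this sum in either genotype. The largest SykY317F LZ sum was 564.5 CPM and the smallest SykY317F DZ sum 567.1, against 563.5 and 622 in WT. The sums were not tested. All 5 COPI genes had a fitted LZ-over-DZ difference below 0 averaged over genotypes, with a median of -0.27 against -0.03 over all tested genes. This direction held under both other scalings, and with the GC trend of each library removed 3 of 5 were below 0, at a median of -0.01. Copa, the large coat subunit, had the smallest p of these, at 38.8, 50.8 and 119 CPM in SykY317F LZ, 114, 106 and 69.1 in SykY317F DZ, 53.8, 76.1, 78.7 and 108.5 in WT LZ, and 107, 122, 114 and 64.1 in WT DZ. The zones overlapped in both genotypes, and the averaged difference was -0.46 ± 0.25 (adjusted p = 0.403).

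Sec22b, a SNARE that fuses vesicles between ER and Golgi, had the smallest p of the machinery for the zones averaged over genotypes. It was at 20.9, 11.3 and 31.4 CPM in SykY317F LZ and 43.6, 27.6 and 30.4 in SykY317F DZ. In WT LZ it was at 21.9, 19.8, 26.9 and 32.9 CPM and in WT DZ at 32.4, 44.0, 37.4 and 35.8 CPM. WT LZ replicate 5 alone reached into the range of WT DZ, and the difference was -0.63 ± 0.26 (unadjusted p = 0.0274, adjusted p = 0.271).

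The p24 proteins had fitted differences on both sides of 0. They summed to 318 ± 105 CPM in SykY317F LZ, 395 ± 29.0 in SykY317F DZ, 403 ± 58.4 in WT LZ and 471 ± 68.8 in WT DZ, with 3 of 9 tested genes above 0 for the averaged zones. Tmed9, the p24 gene with the most UMIs, gave -0.54 ± 0.23 there (adjusted p = 0.280), and Tmed7 gave -1.42 ± 0.62 (adjusted p = 0.310). Tmed3 went the other way in WT, at 35.1, 29.7, 34.6 and 34.6 CPM in LZ against 18.1, 9.70, 15.1 and 32.7 CPM in DZ. WT DZ replicate 5 lay inside the LZ range and the other 3 below it, and the difference was 0.80 ± 0.36 (edgeR adjusted p = 0.536). limma voom with sample quality weights gave Tmed3 1.33 with an adjusted p of 0.0175. Ssrp1, the histone chaperone that shares the Ssr prefix, averaged 280 ± 20.3 CPM in SykY317F LZ, 215 ± 44.4 in SykY317F DZ, 234 ± 62.1 in WT LZ and 245 ± 35.7 in WT DZ.

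**Figure D3:**
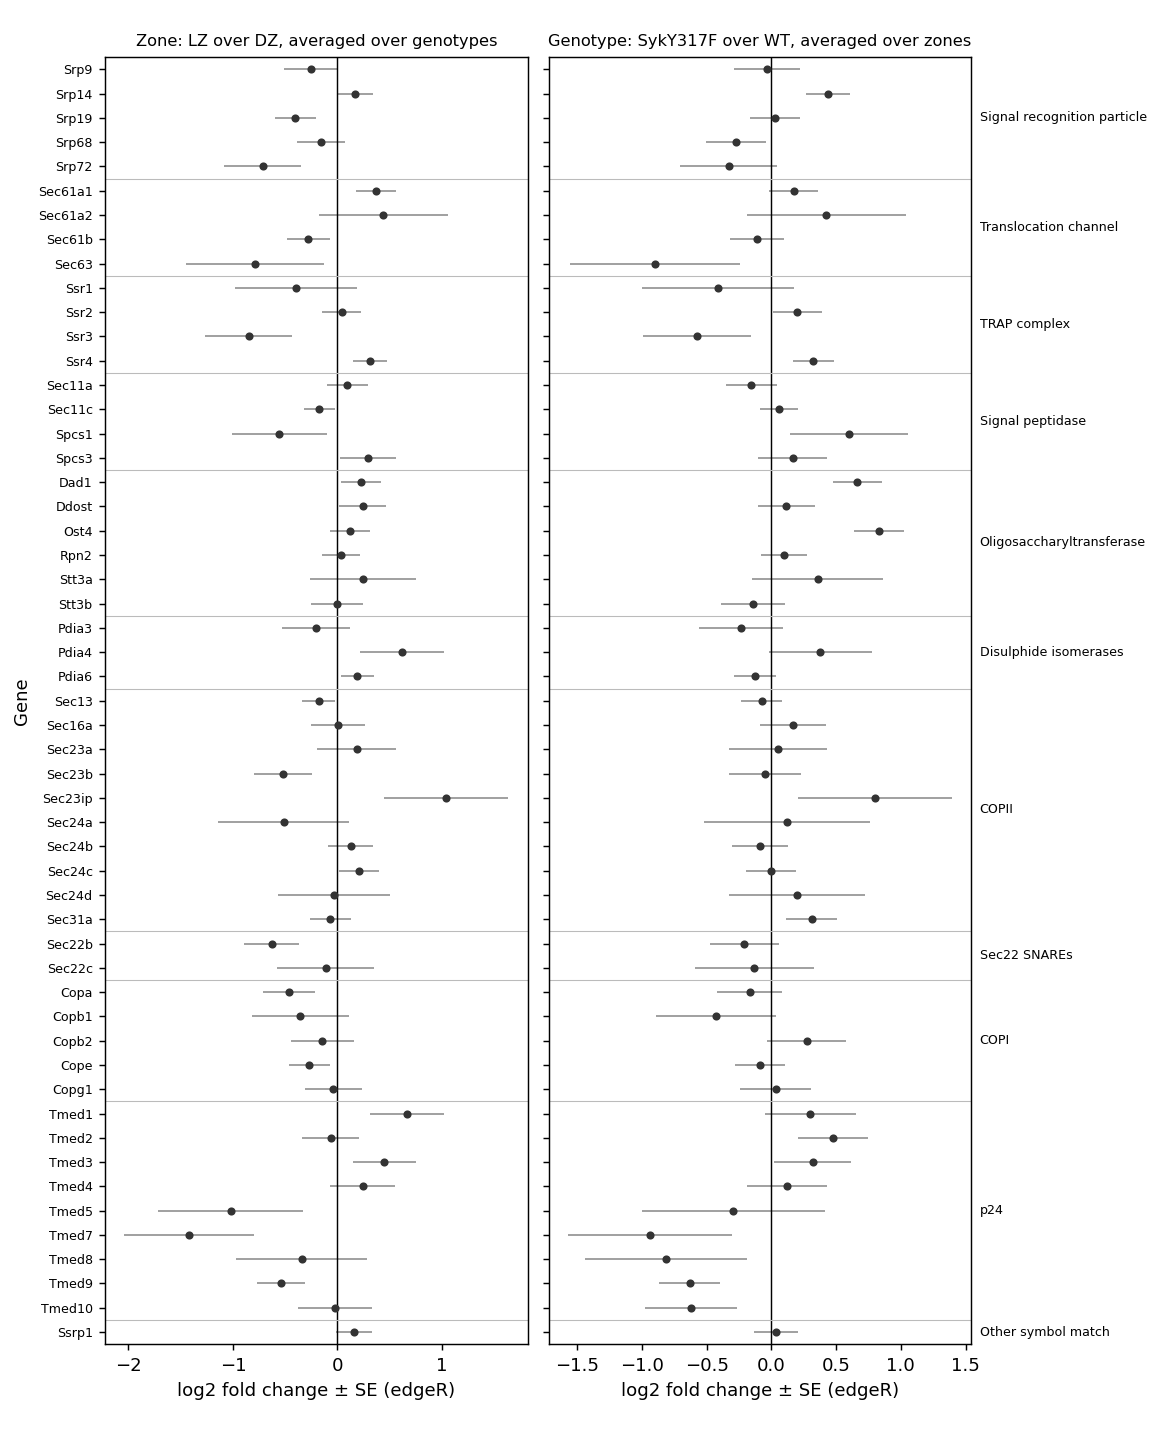
Log2 fold change with its SE (edgeR) for the 53 tested genes, grouped by role, for LZ over DZ averaged over genotypes (left) and SykY317F over WT averaged over zones (right). Points lie on both sides of 0 in most groups, the 5 COPI genes lie left of 0 for zone, and Ost4 and Dad1 stand furthest from 0 relative to their SE for genotype.

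Between the WT zones the median log2 fold change of the machinery, LZ over DZ, was -0.18, against -0.02 over all tested genes. There 17 genes lay above 0 and 36 below, so 32.1% were above 0, against 48.3% of all tested genes. Without WT DZ replicate 5 the median of the machinery was -0.04, against 0.03 over all tested genes. Between the SykY317F zones, with all libraries, the median was 0.03 (29 above, 24 below), against -0.04. For SykY317F against WT it was 0.01 in DZ and 0.05 in LZ, against -0.04 and -0.06 over all tested genes. The intervals show what these data could and could not resolve. The 95% interval stayed within a 2-fold difference for 28 of 53 genes between the WT zones (52.8%, against 46.9% of all tested genes) and for 19 between the SykY317F zones (35.85%, against 23.4%). For genotype it did so for 31 genes in DZ (58.5%, against 45.6%) and 19 in LZ (35.85%, against 27.2%). The difference of the zone effects was bounded in this way for 9 genes (17.0%, against 12.1%). A 2-fold change was therefore not excluded for the remaining genes of each contrast.

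The genes of the machinery differed widely in their spread between libraries of 1 group. The median within-group SD of log2 CPM was 0.52 for the 53 genes and 0.52 for all tested genes. For 6 of 53 (11.3%) the SD of the group means was larger than the SD within groups, against 17.0% of all tested genes. Sec11c (0.16), Sec13 (0.19), Ssr4 (0.25) and Pdia6 (0.25) had the narrowest SD, and Sec24a (1.27), Tmed5 (1.16), Stt3a (1.14), Sec61a2 (1.12) and Tmed8 (1.10) the widest. Several wide genes swung together between libraries of 1 group. Tmed7 was at 31.1, 64.9, 74.8 and 14.4 CPM in the WT DZ libraries, Tmed5 at 15.5, 38.8, 32.0 and 5.65, and Stt3a at 15.5, 28.3, 32.0 and 6.28. Each of these 3 genes was lowest in WT DZ replicate 5 among the WT DZ libraries. The same libraries differed in how a gene's deviation ran with the GC content of its transcript. Across the 53 genes, Spearman's rho between deviation and GC content was -0.66 in WT DZ replicate 4 and 0.515 in WT DZ replicate 5, and across 7563 genes it was -0.59 and 0.59 in the same libraries. The genes of a library share its preparation, so these values describe the libraries.

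**Figure D4:**
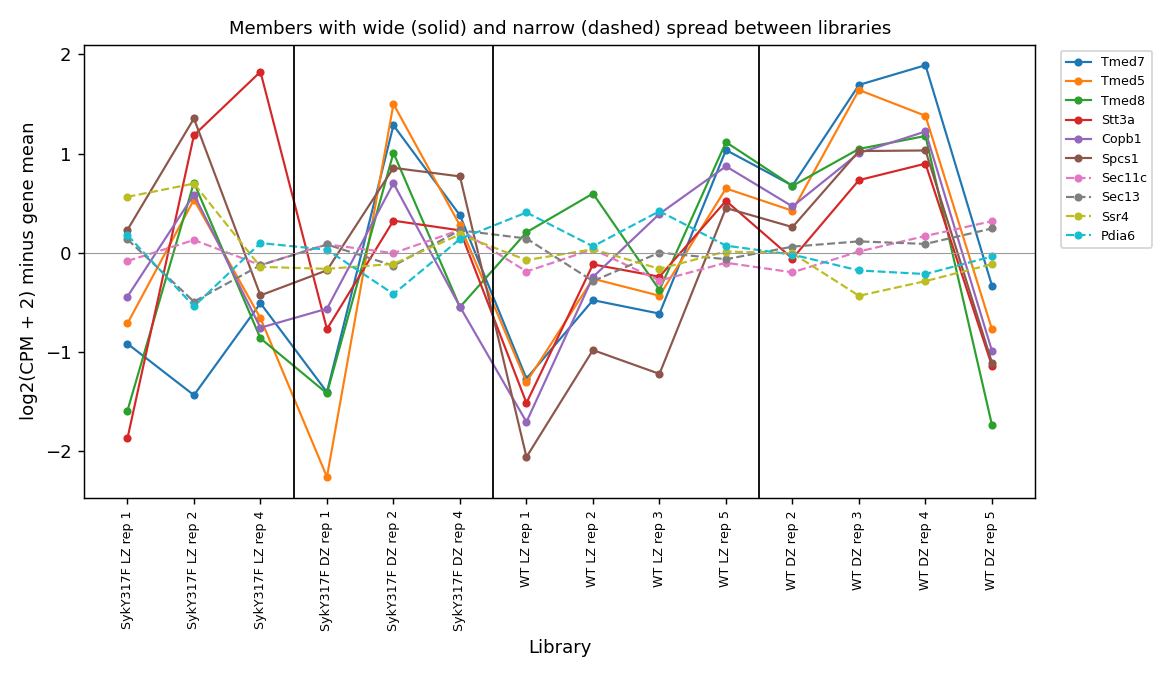
Deviation of log2(CPM + 2) from the gene's mean in each of the 14 libraries. Solid lines are 6 genes with wide spread and dashed lines the 4 with the narrowest. Sec24a and Sec61a2, also among the widest, are not drawn, and Sec24a does not fall in WT DZ replicate 5. Tmed5, Tmed7, Tmed8, Stt3a, Copb1 and Spcs1 are high in WT DZ replicates 3 and 4 and low in WT DZ replicate 5, while Sec11c, Sec13, Ssr4 and Pdia6 stay within 1 of 0 on this scale.

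Genes next to the machinery did include some that differed between zones. Of 53 tested genes of a list of other secretory pathway factors, 0 rose and 2 fell in LZ against DZ averaged over genotypes. Of 39 tested genes for N-glycan synthesis and trimming, 0 rose and 0 fell, and B4galt1, a galactosyltransferase of the Golgi, came nearest (1.06 ± 0.28, adjusted p = 0.0594). It passed in 5 of 25 alternatives, with 0.0229 by DESeq2's Wald test, 0.0412 by limma voom and 0.0435 in edgeR with the GC trend removed. Gmppa of the same list gave 0.65 and did not pass in the main fit. It passed in 5 of 26 alternatives, with 0.0366 by DESeq2's Wald test and 0.0163 by limma voom. In edgeR its adjusted p was 0.0372 with read counts and 0.0402 with the GC trend removed. Of 38 tested ER chaperone and unfolded protein response genes, 0 rose and 2 fell, and of 7 tested plasma cell genes 0 rose and 1 fell. The background was 1.43% of all tested genes. In each of the other 6 contrasts edgeR called 0 genes of these 4 lists.

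Eif2ak3, which encodes the ER stress kinase PERK, was at 44.8, 39.5 and 50.2 CPM in SykY317F LZ and 104, 85.4 and 71.9 in SykY317F DZ. In WT LZ it was at 53.8, 32.6, 49.9 and 71.6 CPM and in WT DZ at 107, 117, 134 and 98.0 CPM. The zones did not overlap in either genotype, and the averaged log2 fold change was -1.05 ± 0.21 (edgeR adjusted p = 0.0148). It did not pass without SykY317F LZ replicate 1 (0.0531) or without SykY317F DZ replicate 1 (0.0569). Txndc11, a thioredoxin-domain protein of the ER, was at 137, 118.5 and 169 CPM in SykY317F LZ and 233, 177 and 205 in SykY317F DZ, and at 168, 124, 119 and 106 in WT LZ and 258, 216, 200.2 and 285 in WT DZ. Again the zones did not overlap in either genotype (-0.72 ± 0.17, adjusted p = 0.0355).

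Mzb1, an ER chaperone partner that helps to assemble antibody chains, was at 1054, 768 and 721 CPM in SykY317F LZ and 1574, 999.6 and 1929 in SykY317F DZ. In WT LZ it was at 1297, 799.7, 931 and 1021 CPM and in WT DZ at 1496, 1561, 1473 and 2173 CPM, and the averaged difference was -0.77 ± 0.19 (adjusted p = 0.0414). Xbp1, the transcription factor that drives the secretory programme of plasma cells, gave -0.41 ± 0.17 and did not pass (adjusted p = 0.272). The ER chaperones Hspa5 (-0.45 ± 0.32), Hsp90b1 (0.30 ± 0.19) and Calr (0.03 ± 0.16) did not pass either, though Hsp90b1 gave 0.55 with an adjusted p of 0.0452 with the GC trend of each library removed. The plasma cell list, of which 9 of 12 genes were measured, summed to 1394 to 1530 CPM in SykY317F LZ, 2007 to 2554 in SykY317F DZ, 1361 to 1703 in WT LZ and 2210 to 2873 in WT DZ. Mzb1 belongs to that list and alone held between 721 and 2173 CPM per library. Of the 7 tested genes of the list, 3 lay above 0 and 4 below for the averaged zones, with a median of -0.03. Its defining surface marker Sdc1 was at 0 in all 3 SykY317F LZ libraries and at no more than 6.05 CPM in any library, and Irf4 gave 0.81 ± 0.47 (adjusted p = 0.448). Myeloid markers summed to 50.7 to 124 CPM in SykY317F LZ, 264 to 556 in SykY317F DZ, 59.5 to 161 in WT LZ and 91.9 to 397 in WT DZ. T cell markers summed to 53.7 to 124, 79.9 to 193.5, 57.6 to 157 and 20.9 to 58.7 CPM in the same order. The 2 stromal and endothelial markers measured summed to 53.7 to 175.6, 69.1 to 113.7, 65.3 to 94.35 and 29.8 to 56.95 CPM. The DZ genotypes did not overlap for these last 2 sums. The part of these cell types in the zone and genotype differences was not tested.

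Arf4, a small GTPase that helps to recruit COPI, was at 8.95, 16.9 and 37.6 CPM in SykY317F LZ and 84.2, 96.2 and 55.3 in SykY317F DZ, and at 52.7, 59.3, 78.7 and 106 in WT LZ and 50.5, 120, 104 and 111 in WT DZ. The SykY317F zones did not overlap and the WT zones did, with an averaged difference of -1.24 ± 0.30 (adjusted p = 0.0414). Yipf5, a membrane protein of ER-to-Golgi transport, was at 0, 0 and 12.5 CPM in SykY317F LZ and 43.6, 37.7 and 24.9 in SykY317F DZ, and at 28.5, 23.7, 32.6 and 43.9 in WT LZ and 32.4, 56.7, 72.1 and 57.8 in WT DZ. Its averaged difference was -2.14 ± 0.43 (adjusted p = 0.0162) and rests on 2 UMIs over the SykY317F LZ libraries against 125 in SykY317F DZ, a ratio of 0.0676 (exact binomial 95% interval 0.0081 to 0.2495, counting error only). The difference of zone effects, SykY317F minus WT, did not pass for either gene (adjusted p = 0.991 for both in edgeR). Each of these 5 calls was lost when some single libraries were left out. Arf4 passed without SykY317F LZ replicate 4, SykY317F DZ replicate 4, WT LZ replicate 5, WT DZ replicate 2 or WT DZ replicate 5 and in none of the other 9 such fits, where its adjusted p reached 0.149. Txndc11 passed without SykY317F LZ replicate 4, SykY317F DZ replicate 2, WT LZ replicate 1, WT DZ replicate 4 or WT DZ replicate 5 and in none of the other 9 (up to 0.129). Mzb1 passed without SykY317F DZ replicate 2, WT LZ replicate 1 or WT DZ replicate 2 and in none of the other 11 (up to 0.129). Yipf5 did not pass without SykY317F LZ replicate 1 (0.0771) or replicate 2 (0.0509), and its difference ran from -4.46 to -1.68 over these fits. With the GC trend of each library removed, Yipf5 (adjusted p = 0.0534), Txndc11 (0.0733) and Arf4 (0.124) did not pass. With read counts in place of UMIs, Mzb1 (0.0542), Txndc11 (0.0557) and Arf4 (0.351) did not pass, and with all libraries thinned to the depth of the smallest, Eif2ak3 (0.0705), Txndc11 (0.105) and Arf4 (0.1405) did not.

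**Figure D5:**
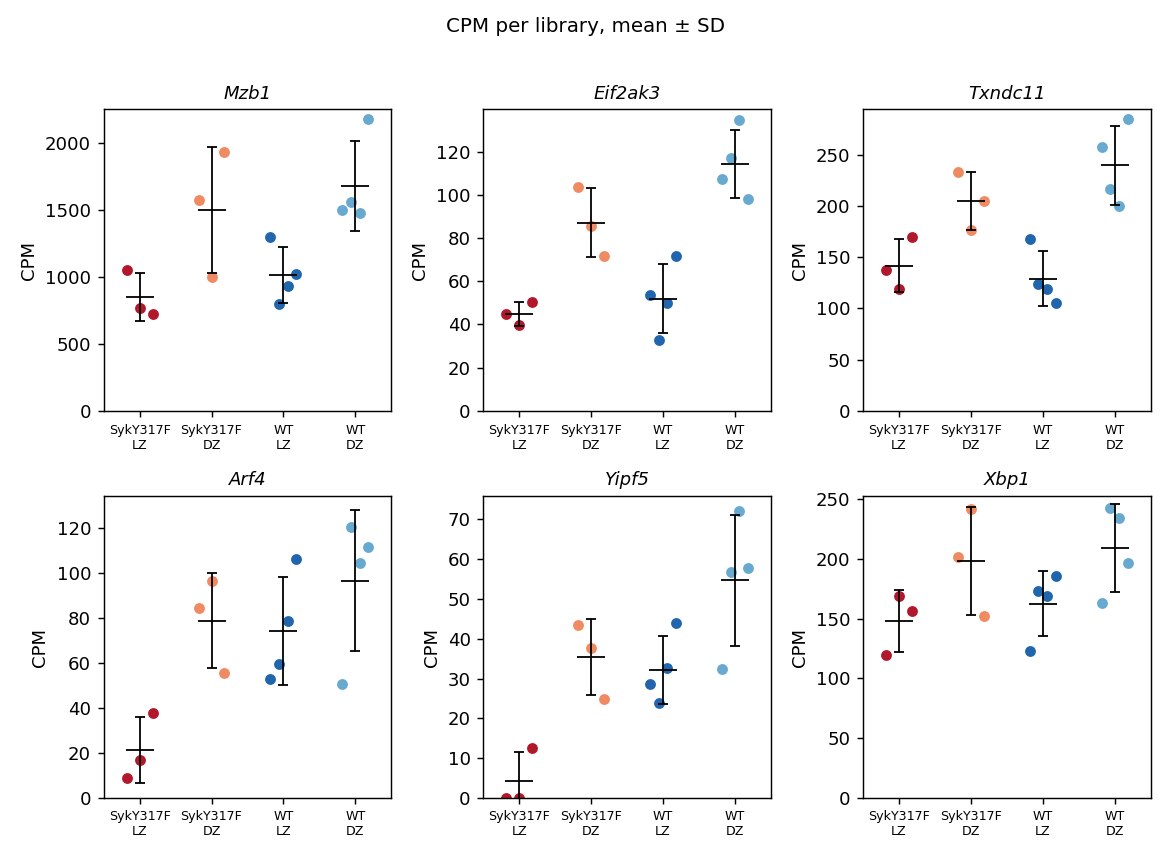
CPM of Mzb1, Eif2ak3, Txndc11, Arf4, Yipf5 and Xbp1 in each library (points) with the mean and SD of the group (lines), for SykY317F LZ, SykY317F DZ, WT LZ and WT DZ. Eif2ak3 and Txndc11 lie lower in LZ than in DZ in both genotypes with no overlap, and Yipf5 is at 0 in SykY317F LZ replicates 1 and 2.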

How the data were processed

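The 14 libraries were made from sorted GC B cells of both zones. Per the labels' protocols, oligo(dT) beads were used to capture mRNA, and a variant of MARS-seq, which tags transcript ends with UMIs, to build libraries. Per the submitters' processing notes, the build was mm10 and the tools were DESeq, DESeq2, HTSeq, STAR 2.4.2a and cutadapt, with no role or order stated. Whether counting used strand is not given in the sources used here.

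UMI counts per gene were deposited as whole numbers without normalization, with read counts beside them. UMI counting removes PCR copies, which read counts keep. The authors also deposited log2 fold changes and p-values, quoted only where named. The deposited normalized signal and regularised log2 values, 28 columns, were not used.

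Genotype and zone labels gave the groups. After filterByExpr, 7999 genes with 99.3% of all UMIs entered a TMM-scaled fit with edgeR 4.0.16 (R 4.3.3) as a robust quasi-likelihood model of the 4 groups (common biological coefficient of variation 32.3%). P-values were adjusted by Benjamini-Hochberg within each contrast across the whole table, and 0.05 was the threshold. CPM is UMIs per 1000000 of the TMM-scaled library total. Floors and the interval of the 1 low-count ratio reflect counting error alone. The steps were also run on simulated counts with known changes, as a check of the fit. The share of those changes recovered is not reported here, so the power of the tests is not stated. Positions are those of GRCm38 from its annotation, which matched 57 of 57 genes.

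The members, lists, contrasts and alternatives were chosen with earlier results of these data known. Named genes are up to 4 with the smallest p in each direction of each contrast, the largest and the smallest-p gene of each role group, genes left out by the filter, fixed markers, and the 2 smallest-p genes of each neighbouring list. Genes shown for wide or narrow spread were taken from the ends of that ranking, but Sec24a and Sec61a2, among the widest, were not drawn. Alternatives were DESeq2 1.42.0 size factors and Wald test, scaling by library size, limma 3.58.1 voom, no filter and a filter of 20 counts in 3 libraries, fits of the groups compared alone, the replicate number as a block, read counts, and leaving out each library or both with the fewest UMIs. Added after seeing the data were thinning to the smallest library (median of 21 draws), leaving out the 4 libraries under 20 UMIs per 100 reads, and removing the trend along transcript GC content in each library, also with the replicate block. The labels do not tie the replicate numbers to mice, so the numbers were not taken as pairs in the main fit. Same-numbered libraries did not deviate together in every case, which cannot decide whether they share a mouse.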

Additional observations from a re-analysis of the deposited data

Results flagged for a closer look

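In 5 of 94 groups of 4 libraries tested (47 named genes in WT LZ and WT DZ), 1 library lay apart from the other 3 by Dixon's test, whose critical ratio for 4 samples is 0.829. Chance flags about 1 in 20 groups, so this number is near what chance gives. In WT DZ replicate 5, Tmed9 was at 352.9 CPM, against 178 to 206 in the other WT DZ libraries. Ssr2 was at 268.8 CPM in the same library, against 167 to 173.5. Mzb1 was at 2173 CPM there, against 1473 to 1561. In WT LZ replicate 2, Tmed3 was at 29.66 CPM, against 34.55 to 35.11 in the other WT LZ libraries. Irf4 was at 148.3 CPM in the same library, against 54.85 to 68.71.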

How the results depend on the processing

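The count of genes of the machinery past the threshold was 0 in each of the 7 contrasts under all alternatives but 4. It was 1 (Tmed3) for the WT zones with limma voom, 1 (Ost4) for SykY317F against WT in LZ with DESeq2's Wald test and again 1 with the GC trend removed, and 1 (Ost4) for the genotypes averaged over zones with DESeq2 (0.85, adjusted p = 0.0195). Leaving out single libraries gave 0 throughout, so the range was 0 to 0. With the replicate number as a block it was also 0 in each contrast, and the genes called over the whole table for the averaged zones were 94, against 114. Correlations between same-numbered libraries ran from -0.56 to 0.31 (8 of 14 pairs over 0.1). Over the whole table, the genes called were 15 for the WT zones (0 to 295 under the settings that keep single libraries in), 3 for the SykY317F zones (0 to 31), 114 for the averaged zones (17 to 235), and 0 for the genotypes in DZ (0 to 4), in LZ (0 to 54) and averaged over zones (0 to 40). Over the single named genes, leaving out 1 library kept direction and side of the threshold in 1164 values and lost a call in 33. Scaling by library size alone moved the median of all genes for LZ against DZ in SykY317F to -0.19, against -0.04.

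Some directions turned. For the averaged zones, Stt3b (-0.0025 on the log2 scale) became 0.014 with the strict filter, 0.058 with the replicate block, 0.082 without both libraries with the fewest UMIs, 0.12 with read counts, 0.098 with the GC trend removed and 0.15 with that and the block, and ran from -0.13 to 0.10 over single libraries left out. Ssr2 (0.04) became -0.0080 by library size alone and ran from -0.052 to 0.14 over single libraries left out. Calr (0.03) became -0.031 by library size alone and -0.076 with read counts, and ran from -0.014 to 0.12. Sec11c (-0.17) became 0.084 with read counts. Stt3a's difference of zone effects (1.44) became -1.91 without both libraries with the fewest UMIs. Tmed9 for SykY317F against WT in DZ (-0.32) ran from -0.66 to 0.0086, the last without WT DZ replicate 5. The cause was not tested. The calls of Eif2ak3, Txndc11, Mzb1 and Arf4 were lost without both libraries with the fewest UMIs, where fewer libraries were compared. Arf4 was also lost by library size alone (adjusted p = 0.0579) and with limma voom (0.0506), and the calls lost with the GC trend removed, with read counts and with thinning are given with the genes. With the GC trend removed and the replicate block together, Txndc11 (0.0625) and Arf4 (0.0999) did not pass and Irf4 did (1.01, 0.0230). Irf4 passed in none of the 11 other settings that keep single libraries in. The median of the machinery between the WT zones was -0.05 with the replicate block, against -0.18. At this depth changes in weakly expressed genes such as Sec62 and Sec61g were not detectable.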

Other observations

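The deposited table of read counts lists 3 further genes that the symbol rule would take and that have no row among the UMI counts. Pdia5, a disulphide isomerase, held 10 reads over all 14 libraries, Sec31b, a second form of the COPII cage subunit, held 11, and Spcs2, a signal peptidase subunit, held 39. Spcs2 reads were found in SykY317F LZ replicate 1 (16), SykY317F DZ replicates 1 and 2 (1 and 5), WT LZ replicates 1, 2 and 5 (8, 1 and 2) and WT DZ replicates 3 and 5 (3 and 3). Counts this low allow no comparison between the groups.

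Of the 57 genes, 24 have exons that overlap those of another annotated gene on GRCm38, among them Spcs1 (Glt8d1), Tmed5 (Mtf2) and Tmed7 (Ticam2). The median transcript of the 53 tested genes was 1688 bases long with 50.3% GC, against 1979 bases and 51.3% over the tested genes with a transcript value.

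Jchain, which joins antibody subunits in plasma cells, varied widely within groups, at 149, 186 and 483 CPM in SykY317F LZ and 206, 490 and 370 in SykY317F DZ, and at 38.4, 157, 219 and 319 in WT LZ and 419, 960 and 809 in WT DZ replicates 2, 3 and 4. WT DZ replicate 5, which had the highest Mzb1, held 44.0 CPM of Jchain. Its zone difference averaged over genotypes was -1.01 ± 0.63 on the log2 scale (edgeR adjusted p = 0.501).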
